A study of Mus musculus with 9 samples.

Results

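The transcripts described here are those of the mouse mitochondrial genome, taken as every gene whose symbol starts with mt-. There were 37 such genes among 52636: 13 messenger RNAs, 2 ribosomal RNAs and 22 transfer RNAs. Thyroids of male C57BL/6 mice were taken 7 days after 1 intraperitoneal injection of antibody and profiled as single cells with the 10x 3' v2 kit, in 3 groups of 3 samples. Control mice received an antibody against ragweed, a plant antigen, at 40 mg/kg (RW). Ligand blockade used antibodies against Jag1 and Jag2 at 20 mg/kg each (aJ1aJ2), and receptor blockade used antibodies against Notch1 at 5 mg/kg and Notch2 at 10 mg/kg (aN1aN2). The age is 10 to 12 weeks in the series design and 10 to 14 weeks in the protocol label. Each sample is a pool of the thyroids of 6 mice, so p-values below measure the spread between pools.

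Mitochondria carry a small circular genome of their own. It is transcribed from both strands as long precursors, and transfer RNAs lying between the other genes are cut out to release the single transcripts. The messenger RNAs encode subunits of respiratory complexes I, III, IV and V, the ribosomal RNAs build the mitochondrial ribosome that translates them, and every other protein of these machines is encoded in the nucleus and imported. Thyrocytes use mitochondrial energy and peroxide-generating enzymes to make thyroid hormone.

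The table held 10186 cells and 63121420 unique molecular identifiers (UMIs, each standing for 1 captured RNA molecule), with 3013324 to 11880793 UMIs per sample. The lowest totals were those of the 3 aN1aN2 samples, at 4447972, 4213741 and 3013324. No cell exceeded 25% mitochondrial UMIs, a limit already present in the deposited cells, and 15 cell barcodes occurred in more than 1 library. The sample numbers in the titles form 3 series. RW 3 and aJ1aJ2 1 belong to series A, the other 4 samples of these groups to series B, and all 3 aN1aN2 samples, alone, to series C. Receptor blockade and series C therefore cannot be told apart in any comparison below. Cells carry 16 labels made by the authors. Of these, Th1 had the thyrocyte markers at 85083 to 115426 per 1000000 UMIs in its 9 samples, with thyroglobulin (Tg) alone at 92030 per 1000000 over all Th1 cells. EC1 and EC4 had endothelial markers at 8928 per 1000000 or more in every sample, F had fibroblast markers at 24905 or more, and hemoglobin genes and Alas2 took 897594 per 1000000 or more in Eryth1 and Eryth2. Th3 was mixed. Its C cell genes Calca and Scg2 reached 67450 per 1000000 in RW 2, and skeletal muscle genes reached 53391 in aJ1aJ2 1 and 94979 in aN1aN2 2.

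Messenger RNAs made up 66.3% of all mitochondrial UMIs, ribosomal RNAs 33.6% and transfer RNAs 0.0260%. All 13 messenger and both ribosomal RNAs were detected, against 16 of 22 transfer RNAs. As a share of every UMI in the table, messenger RNAs held 3.95% and ribosomal RNAs 2.00%. Per base of transcript, the large ribosomal RNA mt-Rnr2 had 694 UMIs and the small one, mt-Rnr1, 172. Among messenger RNAs, mt-Cytb (cytochrome b, the only complex III subunit encoded here) had 673 UMIs per base, mt-Nd2 373, mt-Nd1 370, mt-Nd4 316 and mt-Atp6 246. The lowest was mt-Nd6, at 8.97 UMIs per base, the only messenger RNA read from the light strand. Reads come from the site where each RNA was primed, and the part of capture in this order was not tested.

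The kit primes reverse transcription on runs of A, so A-rich stretches and 3' ends are shown. The richest 20 bases in A held 16 A in mt-Rnr2 and 15 A in mt-Rnr1, against 8 to 14 in the messenger RNAs. Both stretches are shown with 20 bases on each side, from GENCODE M21 on GRCm38, capitals marking the 20 bases. The A-rich window ends 1168 bases before the 3' end of mt-Rnr2 and 280 bases before that of mt-Rnr1.
mt-Rnr2, chrM:1468-1527, plus strand: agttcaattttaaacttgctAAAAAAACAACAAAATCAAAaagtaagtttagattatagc
mt-Rnr1, chrM:705-764, plus strand: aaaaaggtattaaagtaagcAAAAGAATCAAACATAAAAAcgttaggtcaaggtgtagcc

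The last 30 bases of 5 messenger RNAs follow, with the stop codon, or the part of it that the genome encodes, in capitals. mt-Cytb, mt-Nd4 and mt-Co3 end in a lone T, 1 base past the last full codon, and the added A tail is known to complete the stop codon. mt-Atp8 and mt-Atp6 end in a full TAA, and they are shown because their values below part company although their genes overlap by 43 bases and are known to be carried by a single messenger RNA.
mt-Cytb, chrM:15259-15288, plus strand: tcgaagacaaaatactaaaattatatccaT
mt-Nd4, chrM:11515-11544, plus strand: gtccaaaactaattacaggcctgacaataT
mt-Co3, chrM:9361-9390, plus strand: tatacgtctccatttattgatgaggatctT
mt-Atp8, chrM:7940-7969, plus strand: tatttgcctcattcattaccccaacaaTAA
mt-Atp6, chrM:8578-8607, plus strand: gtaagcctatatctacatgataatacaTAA

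A cluster of annotated pseudogenes on chromosome 1 repeats part of the mitochondrial genome at 99% identity or more. Its copies come within 3 bases of the 3' end of mt-Atp6 (copy Gm10925), mt-Co1 (Gm29216), mt-Co2 (Gm28661), mt-Co3 (Gm28437), mt-Nd3 (Gm28438) and mt-Nd4l (Gm10222), so reads of each pair can be hard to tell apart. The copy of mt-Nd4 (Gm28439) stops 502 bases short of the 3' end. mt-Nd1, mt-Nd2, mt-Nd5, mt-Nd6, mt-Cytb and mt-Atp8 have no annotated copy at that identity over at least 100 bases, the shortest match kept. The last 43 bases of mt-Atp8 are also the start of mt-Atp6, and lie within the match of mt-Atp6 to Gm10925. mt-Atp8 is still counted below among the 6 messenger RNAs without a near-identical copy. Only annotated transcripts were searched. The copies held 12645 UMIs for Gm28437, 10448 for Gm10925, 8488 for Gm28661, 7470 for Gm29216, 440 for Gm28438, 6 for Gm28439 and 5 for Gm10222. Less similar copies lie on chromosome 2, among them Gm13340 of mt-Co1 (97.6% identity, 7386 UMIs) and Gm13341 of mt-Co2 (95.9%, 2835 UMIs). They are left out of the copy shares below. How the authors treated reads that match both places is not given in the sources used here.

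The balance of ribosomal to messenger RNA differed widely between cell labels. The ratio was the summed UMIs of mt-Rnr1 and mt-Rnr2 over those of the 13 messenger RNAs, for samples with at least 20 cells of a label. Its median over samples was 1.16 in EC1, 0.816 in EC4, 0.794 in EC3, 0.583 in F and 0.352 in Th1. These medians mix the 3 groups. By group mean EC3 lay above EC4 in RW (1.06 against 0.965) and in aN1aN2 (0.375 against 0.366). In aJ1aJ2 the means were 0.995 and 1.00. In EC1, EC4 and F it was above that of Th1 in 9 of 9 samples. Messenger RNAs took a median of 5.98% of UMIs in Th1 (5.70 to 6.96%), 2.67% in EC1 (2.07 to 3.57%), 2.61% in F and 5.38% in EC4. In EC1 and F the share was below that of Th1 in 9 of 9 samples and in EC4 in 7 of 9, so the endothelial label EC1 held less messenger RNA and more ribosomal RNA per messenger RNA than the thyrocytes. These label differences are described without a test, since labels made from expression share their values with the cells compared. Messenger RNAs also took 0.418% of UMIs in Eryth2 and 2.08% in Eryth1 (medians), cells of a lineage that loses its mitochondria. How much of that is RNA free in the suspension was not tested.

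**Figure D1:**
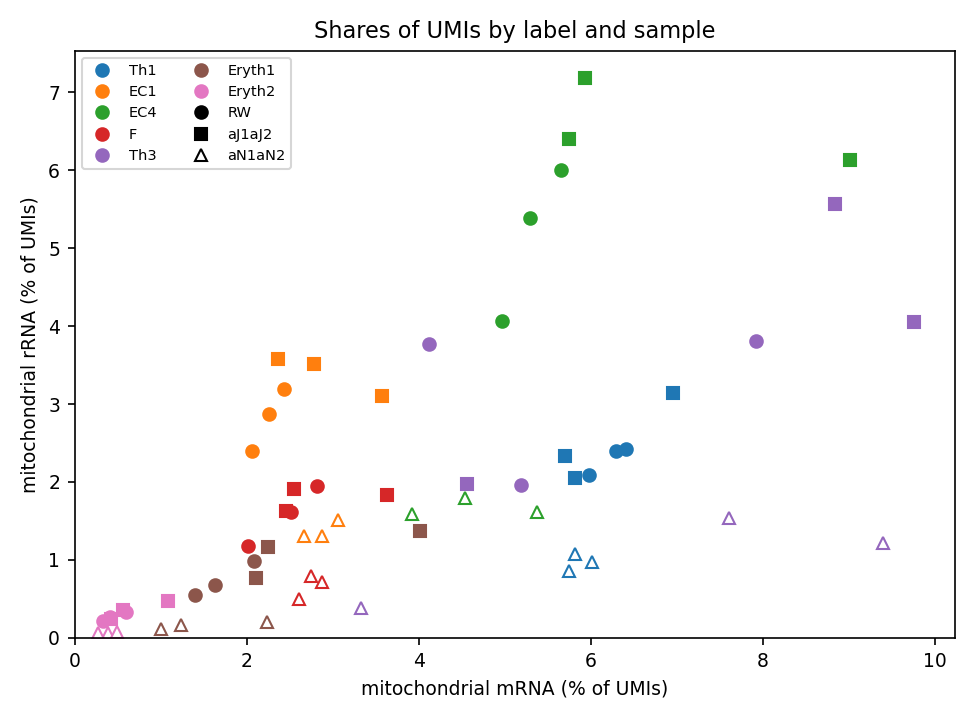
Share of UMIs from mitochondrial messenger RNAs (x axis, percent) against that from mitochondrial ribosomal RNAs (y axis, percent), one point per sample and label, with colour for label and shape for group (open triangles aN1aN2). Within each colour the open triangles lie lowest on the y axis, while all 9 Th1 points lie between 5.70 and 6.96% on the x axis.

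Ribosomal RNA was low relative to messenger RNA in every receptor blockade sample. In Th1 the ratio was 0.381, 0.377 and 0.350 in RW 1, 2 and 3, and 0.452, 0.410 and 0.352 in aJ1aJ2 1, 3 and 4. It was 0.185, 0.162 and 0.149 in aN1aN2 1, 2 and 3. The 3 aN1aN2 samples lay below the other 6, which overlapped. On the log2 scale the mean was -1.44 ± 0.0683 in RW, -1.31 ± 0.183 in aJ1aJ2 and -2.60 ± 0.157 in aN1aN2 (SD, n = 3 each). aN1aN2 differed from RW by -1.16 and from aJ1aJ2 by -1.29 (exact two-sided permutation test, p = 0.1 each, the smallest that 3 against 3 samples allow). aJ1aJ2 differed from RW by 0.12 (exact permutation test, p = 0.3). Over the 3 groups the exact permutation p was 0.0107, or 0.0429 after Benjamini-Hochberg adjustment over 4 such tests, and without RW 1, RW 2 or RW 3 the adjusted permutation p was 0.0571. In series B alone aJ1aJ2 and RW differed by 0.00084 (2 against 2, exact permutation p = 1.0).

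The ratio was lowest in aN1aN2 in each label that could be compared. In EC1 the ratio was 1.16 to 1.31 in RW, 0.869 to 1.51 in aJ1aJ2 and 0.455 to 0.494 in aN1aN2. In EC4 it was 0.816 to 1.06 in RW and 0.299 to 0.405 in aN1aN2, and in F 0.583 to 0.693 and 0.190 to 0.290. Over 9 labels the aN1aN2 samples lay below the RW samples in 9, where lower, non-overlapping CPM (counts per 1000000) occurred for 18.3% of all genes tested, pooled over labels (12.5 to 23.7% by label). Against aJ1aJ2 they lay below in 10 of 10 labels (16.3% of all genes, pooled). aJ1aJ2 overlapped RW in 11 of 12 and lay below it in EC2, with 2 samples in each group (9.46% of all genes, pooled over 12 labels). RW 3, left out of EC2 with 15 cells, had a ratio of 0.725 and would overlap aJ1aJ2. In Eryth2, a label of red blood cells, the ratio was 0.543 to 0.655 in RW and 0.156 to 0.229 in aN1aN2, at the low mitochondrial content given above. Averaged over the 8 labels with at least 10 cells in every sample, Eryth1 and Eryth2 left out, log2 of the ratio was -0.45 ± 0.194 in RW, -0.50 ± 0.307 in aJ1aJ2 and -2.03 ± 0.217 in aN1aN2 (SD, n = 3 each). The exact permutation p over the 3 groups was 0.0286 (0.0571 adjusted).

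**Figure D2:**
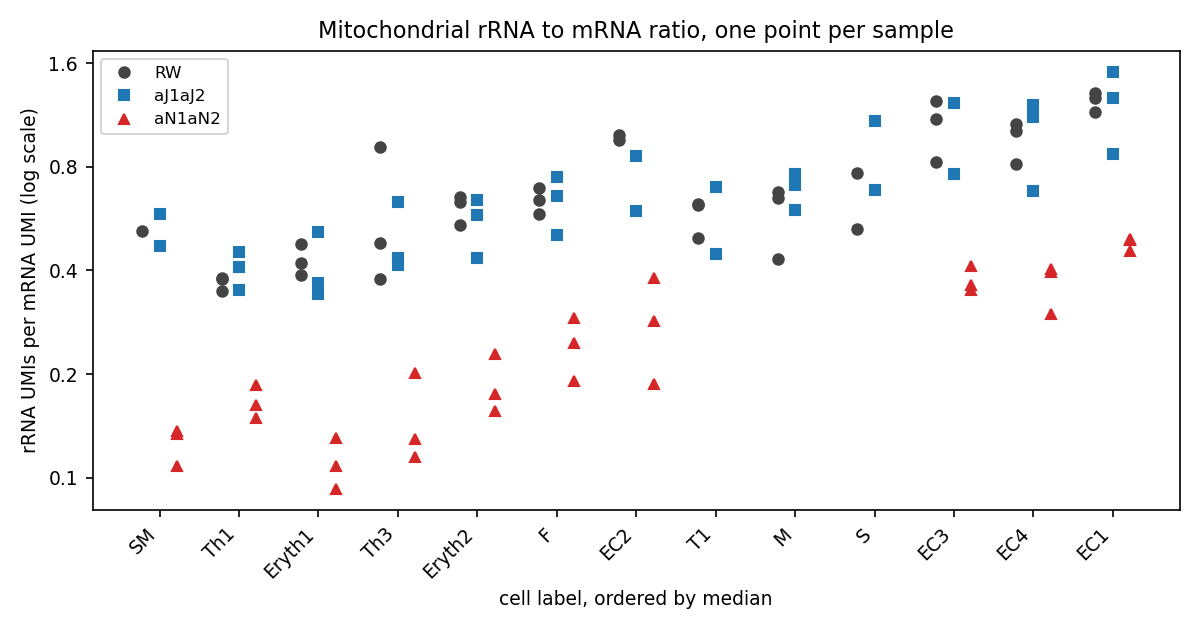
Ratio of mitochondrial ribosomal to messenger RNA UMIs (y axis, log scale) by cell label (x axis), one point per sample with at least 20 cells, for labels with 4 such samples or more. In Th1 the aN1aN2 triangles lie at 0.149 to 0.185, below RW at 0.350 to 0.381, and no triangle overlaps the RW points of its label.

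Several values moved with receptor blockade beside this ratio. Th1 cells were shallower, with a median of 5737 to 7558 UMIs per cell in the aN1aN2 samples against 9968 to 22558 in the other 6. Among Th1 cells of 4000 to 10000 UMIs, a window chosen after seeing the data, the difference from RW was -1.67, larger than over all cells. The nuclear RNAs Malat1 and Neat1, which serve as a sign of RNA and cell quality, summed to 5752 to 13485 per 1000000 UMIs in Th1 of aN1aN2, against 14326 to 18877 in RW and 13437 to 23443 in aJ1aJ2. In EC1 they summed to 2775 to 4523 per 1000000 in aN1aN2 and 15721 to 18669 in RW. Summed levels of other markers in Th1 also set aN1aN2 apart. The 3 parathyroid genes stood at 96.4 to 237 per 1000000 against 6.67 to 55.8 in the other 6 samples, and the 4 Schwann cell genes at 87.1 to 99.1 against 163 to 248. The 5 erythroid genes overlapped, at 659 to 1266 against 95.7 to 1639. The part of RNA quality and of these markers in the ratio was not tested. With only the 6 messenger RNAs that have no near-identical nuclear copy in the denominator, the difference from RW in Th1 was -0.92.

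Messenger RNA as a share of all UMIs overlapped between the groups in Th1. It was 6.29, 6.41 and 5.98% in RW 1, 2 and 3, then 6.96, 5.70 and 5.82% in aJ1aJ2 1, 3 and 4, and 5.82, 6.01 and 5.74% in aN1aN2 1, 2 and 3. The means were 6.23 ± 0.224%, 6.16 ± 0.692% and 5.86 ± 0.138% (SD, n = 3 each; exact permutation test over 3 groups, p = 0.625). Other choices moved the difference of aN1aN2 from RW, which was -0.37 percentage points: it was -1.65 in cells of 4000 to 10000 UMIs, -0.84 for the 6 messenger RNAs without a near-identical copy, and 0.46 for the median over cells. With those 6 messenger RNAs the 3 groups differed (exact permutation test, adjusted p = 0.0476). Over labels the messenger RNA share of aN1aN2 lay above RW in 2 of 9 and overlapped it in 7, near the 17.9% of all genes with higher, non-overlapping CPM. In EC1 it was 2.67 to 3.06% against 2.07 to 2.44% in RW, and in EC3 2.89 to 3.10% against 2.35 to 2.62%. Ribosomal RNA in these 2 labels took 1.31 to 1.51% against 2.39 to 3.19% and 1.08 to 1.19% against 2.16 to 3.08%. Averaged over the same 8 labels as the ratio, the messenger RNA share of aN1aN2 differed from RW by 0.51 percentage points. Leaving out 1 sample at a time moved this difference between 0.281 and 0.693. With the 6 messenger RNAs that have no near-identical copy it was -0.0999. Ribosomal RNA took 2.09 to 2.42% of Th1 UMIs in RW and 0.857 to 1.08% in aN1aN2, and all mitochondrial RNA 8.07 to 8.83% and 6.60 to 6.99%.

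Under ligand blockade the messenger RNA share lay above RW without overlap in 4 of 12 labels, EC3, EC4, Eryth1 and S, while 9.62% of all genes had higher, non-overlapping CPM over the 12 labels pooled. In these 4 labels that share of all genes was 13.3%, 6.71%, 4.9% and 22.6%. EC3 had 2 aJ1aJ2 samples and S had 2 samples in each group, and both rest on the minimum of 20 cells. In EC3 aJ1aJ2 1, left out with 17 cells, stood at 2.33%, below all 3 RW samples. In S RW 2, left out with 13 cells, stood at 5.90%, above aJ1aJ2 3 at 4.63%. In EC4 it was 5.74 to 9.01% in aJ1aJ2 and 4.97 to 5.66% in RW. Averaged over the 8 labels it stood at 3.87 ± 0.424% in RW, 4.74 ± 1.02% in aJ1aJ2 and 4.38 ± 0.0879% in aN1aN2 (SD, n = 3 each; exact permutation test over 3 groups, p = 0.357, adjusted 0.476). Without aJ1aJ2 1 the adjusted permutation p was 0.0143, and it reached 0.686 as other samples were left out in turn. The difference of aJ1aJ2 from RW then ranged from 0.316 to 1.31 percentage points. The limit of 25% lies closer to some groups' cells than to others'. Cells between 20 and 25% made up 4.18% of RW cells, 8.28% of aJ1aJ2 cells and 2.75% of aN1aN2 cells, and 12.1% in aJ1aJ2 4. These figures mix the labels: in Th1 they were 4.94, 6.57 and 5.75% in RW, aJ1aJ2 and aN1aN2, and in EC4 13.8, 22.6 and 2.04%. Cells above the limit are not analysed here, and their part in these shares was not tested.

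Single transcripts were tested with edgeR's quasi-likelihood test on UMIs summed per sample and label, with Benjamini-Hochberg adjustment over all genes of the label, and called at an adjusted p under 0.05. In Th1, 16 mitochondrial genes passed the filter on low counts: 13 messenger RNAs, both ribosomal RNAs and mt-Ta. Under receptor blockade 9 of the 16 were called against RW, 3 higher and 6 lower, where 34.4% of all 10627 tested genes were called (17.1% higher, 17.3% lower). Against aJ1aJ2, 11 were called, 4 higher and 7 lower (22.3% of all genes). Under ligand blockade none of the 16 was called and 1 had an unadjusted p under 0.05, where 0.612% of all genes were called and 12.3% had such a p. With DESeq2, mt-Atp8 and mt-Nd5 lost their calls against RW and against aJ1aJ2, and the other called genes kept theirs. No gene of the 16 gained a call with DESeq2 in these comparisons. Without aN1aN2 1, 7 were called against aJ1aJ2 (14.6% of all genes). Without aJ1aJ2 1, mt-Nd4l was called lower under ligand blockade (edgeR adjusted p = 0.0438), where 4.9% of all genes were called.

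Both ribosomal RNAs fell under receptor blockade. mt-Rnr2, the 16S ribosomal RNA, stood at 21375, 21478 and 18959 CPM in RW 1, 2 and 3, and at 29329, 20114 and 17255 CPM in aJ1aJ2 1, 3 and 4. In aN1aN2 1, 2 and 3 it stood at 9704, 8486 and 7893 CPM, below all other samples. The log2 fold change against RW was -1.24 ± 0.156 (SE; edgeR adjusted p = 2.48e-05). mt-Rnr1, the 12S ribosomal RNA, stood at 2597, 2987 and 2362 CPM in RW and at 1099, 1105 and 1151 CPM in aN1aN2, without overlap (log2 fold change -1.24 ± 0.126, SE; edgeR adjusted p = 2.87e-06). The ratio of mt-Rnr2 to mt-Rnr1 overlapped between the groups in Th1, at 7.19 to 8.23 in RW, 6.57 to 7.90 in aJ1aJ2 and 6.86 to 8.83 in aN1aN2, while over labels aN1aN2 lay above RW in 2 of 9, near the 17.9% of all genes with higher, non-overlapping CPM pooled over labels. Over the 9 labels compared, mt-Rnr1 was called lower in 9 and mt-Rnr2 in 8, all but Th3, with median log2 fold changes of -1.51 and -1.44. Pooled over these labels, 9.87% of all genes were called lower against RW.

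Of the 7 complex I messenger RNAs, 3 fell in Th1, where 17.3% of all genes were called lower: mt-Nd1, mt-Nd2 and mt-Nd5, which have no near-identical nuclear copy. mt-Nd1 and mt-Nd2 encode membrane subunits of this first enzyme of the respiratory chain. mt-Nd2 stood at 9160, 9818 and 8545 CPM in RW 1, 2 and 3, and at 10261, 8459 and 8441 CPM in aJ1aJ2 1, 3 and 4. In aN1aN2 1, 2 and 3 it stood at 6285, 6210 and 5920 CPM, with no overlap (log2 fold change against RW -0.58 ± 0.101, SE; edgeR adjusted p = 0.000462). mt-Nd1 fell by 0.48 on the log2 scale (SE 0.105; edgeR adjusted p = 0.00257). mt-Nd5 fell by 0.69 (SE 0.212; edgeR adjusted p = 0.0196), but lost its call with DESeq2 and without RW 3, aN1aN2 1 or aN1aN2 3. Over the 9 labels each of these 3 was called lower in 2, Th1 and EC4 (9.87% of all genes, pooled). mt-Nd2 and mt-Nd5 were negative in 9 labels, mt-Nd1 in 7. mt-Nd6 had a log2 fold change of -0.67 (edgeR adjusted p = 0.0617) and mt-Nd4 of -0.15 (0.242). mt-Nd3 and mt-Nd4l, whose copies reach the 3' end, had 0.42 (0.326) and 0.23 (0.301). In complex III, the mt-Cytb level was 19663 to 20789 CPM for RW, 18680 to 21670 CPM for aJ1aJ2 and 17587 to 19069 CPM for aN1aN2, which lay below RW and overlapped aJ1aJ2. Its log2 fold change was -0.12 ± 0.0928 (SE; edgeR adjusted p = 0.337), and its share of messenger RNA UMIs was 32.1, 31.9 and 31.3% in the means of the 3 groups.

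**Figure D3:**
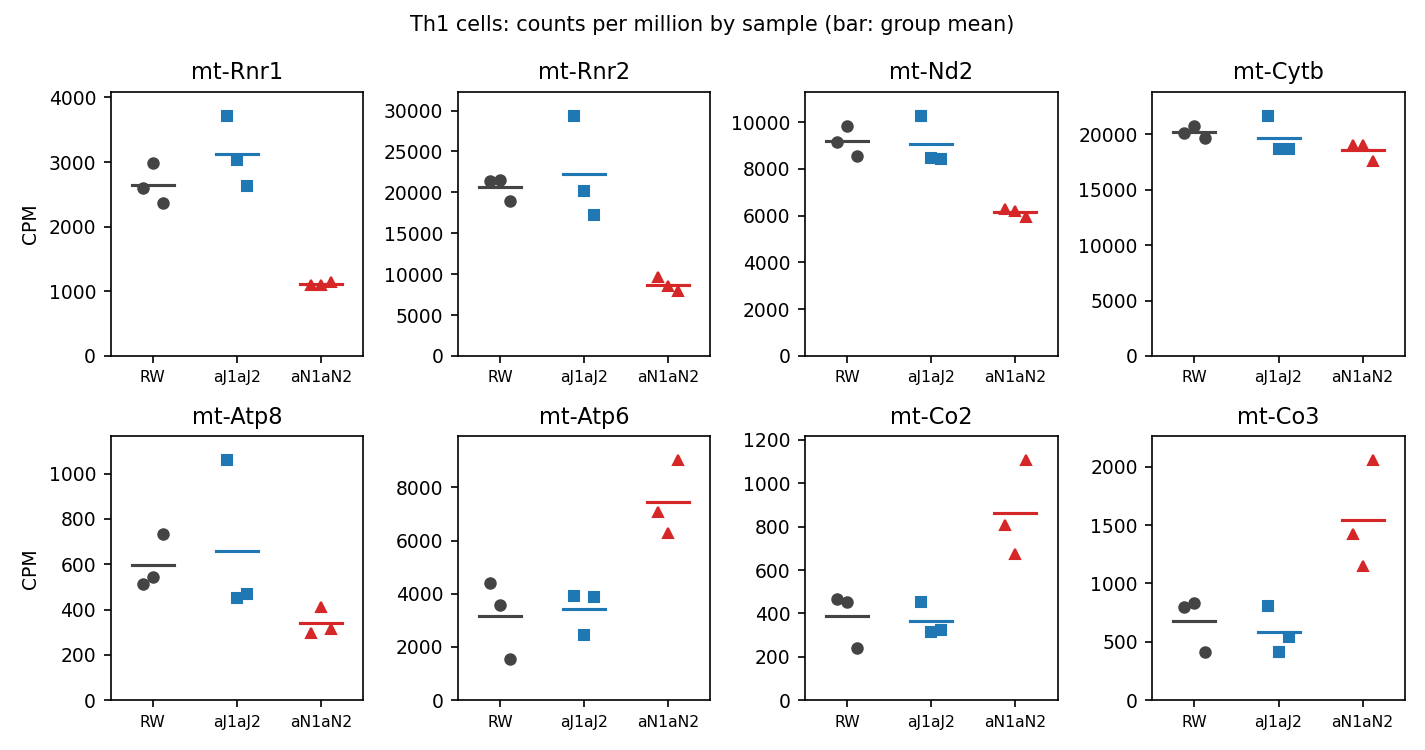
Counts per 1000000 (CPM) in Th1 (y axis, from 0) of 8 mitochondrial transcripts in each sample of RW, aJ1aJ2 and aN1aN2 (x axis), with a bar at the group mean. mt-Rnr1, mt-Rnr2 and mt-Nd2 are lower in all 3 aN1aN2 samples, mt-Atp6, mt-Co2 and mt-Co3 higher, and mt-Cytb differs little.

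mt-Co2, mt-Co3 and mt-Atp6 rose under receptor blockade in Th1, and each has a near-identical nuclear copy of its 3' end. mt-Co2 and mt-Co3 encode core subunits of cytochrome c oxidase, complex IV, and mt-Atp6 the proton channel subunit of the ATP synthase, complex V. mt-Atp6 stood at 4404, 3595 and 1544 CPM in RW 1, 2 and 3, and at 3901, 2465 and 3890 CPM in aJ1aJ2 1, 3 and 4. In aN1aN2 1, 2 and 3 it stood at 7069, 6284 and 9021 CPM, above all other samples (log2 fold change against RW 1.23 ± 0.280, SE; edgeR adjusted p = 0.00319). mt-Co2 stood at 468, 454 and 239 CPM in RW and at 807, 673 and 1106 CPM in aN1aN2 (1.16 ± 0.229, SE; edgeR adjusted p = 0.00119). mt-Co3 stood at 798, 832 and 416 CPM in RW and at 1420, 1148 and 2055 CPM in aN1aN2 (1.18 ± 0.267, SE; edgeR adjusted p = 0.00310). The aJ1aJ2 samples 1, 3 and 4 stood at 451, 316 and 325 CPM for mt-Co2 and at 803, 416 and 540 CPM for mt-Co3, below all aN1aN2 samples. RW 3 was the lowest RW sample for all 3 genes, while aJ1aJ2 1, also of series A, was the highest aJ1aJ2 sample. Over the 9 labels mt-Atp6 was called higher in 5, mt-Co2 in 5 and mt-Co3 in 6, where 10% of all genes were called higher, pooled over labels, and the fold change was positive in 9 of 9 labels for each. mt-Co1, the catalytic subunit of complex IV, also has a copy at its 3' end, and it was not called in Th1 (log2 fold change -0.15, edgeR adjusted p = 0.66). It stood at 4650 and 5923 CPM in the samples of series A, RW 3 and aJ1aJ2 1, and at 2687 to 3425 CPM in the other 7.

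Of the 5 nuclear copies tested in Th1, 3 rose, where 17.1% of all genes were called higher. Gm28437 (copy of mt-Co3), Gm28661 (mt-Co2) and Gm29216 (mt-Co1) rose against RW by log2 fold changes of 0.81, 0.71 and 0.92 (edgeR adjusted p = 0.0102, 0.0374 and 0.0147). Gm10925 (mt-Atp6) had 0.54 (edgeR adjusted p = 0.0686) and Gm28438 (mt-Nd3) -0.49 (0.386). Of the UMIs of mt-Co2 and its copy together, the copy held 30.9, 37.7 and 39.1% in RW 1, 2 and 3 and 28.6, 27.8 and 29.3% in aN1aN2 1, 2 and 3, which lay below RW. The aJ1aJ2 samples, at 24.7 to 32.6%, overlapped both. For mt-Co3 the copy held 26.4 to 37.3% in RW and 25.3 to 28.9% in aN1aN2, which overlap. For mt-Atp6 it held 5.21, 8.68 and 11.2% in RW 1, 2 and 3 and 4.65, 4.99 and 4.77% in aN1aN2 1, 2 and 3, below RW, while aJ1aJ2, at 3.71 to 6.89%, overlapped both. For mt-Co1 the difference went the other way: the copy held 5.64, 7.75 and 3.82% in RW and 11.3, 7.33 and 14.0% in aN1aN2, with RW 2 above the lowest aN1aN2 sample. The copy of mt-Nd3 held 0.282 to 1.57% in RW and 0.230 to 0.426% in aN1aN2, which overlap. In an alternative chosen after seeing the data, UMIs of the copy were added to its mitochondrial gene. The same mitochondrial genes were then called in Th1 against RW and against aJ1aJ2 as before, with no call lost or gained. How reads were divided between copy and gene was not tested.

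mt-Atp8, the other ATP synthase subunit encoded here, parted from mt-Atp6. It stood at 512, 543 and 732 CPM in RW 1, 2 and 3, and at 1059, 449 and 470 CPM in aJ1aJ2 1, 3 and 4. In aN1aN2 1, 2 and 3 it stood at 295, 410 and 312 CPM, below all other samples (log2 fold change against RW -0.81 ± 0.263, SE; edgeR adjusted p = 0.0258). That call was lost with DESeq2 and also without RW 3, aN1aN2 1 or aN1aN2 3, where the highest adjusted p was 0.115, while the direction held in all 17 alternatives. Over the 9 labels it was called lower in 6, where 9.87% of all genes were called lower, pooled, and was negative in 9. The number of mt-Atp6 UMIs per mt-Atp8 UMI in Th1 was 8.60, 6.62 and 2.11 in RW 1, 2 and 3, and 3.68, 5.49 and 8.27 in aJ1aJ2 1, 3 and 4. In aN1aN2 1, 2 and 3 it was 23.9, 15.3 and 28.9. The aN1aN2 samples lay above RW in 9 of 9 labels by this measure, where 17.9% of all genes had higher, non-overlapping CPM, for example at 15.3 to 23.9 against 3.62 to 7.12 in EC1. The other known pair on a shared messenger RNA, mt-Nd4l and mt-Nd4, overlaps by 7 bases. There the mt-Nd4 UMIs per mt-Nd4l UMI in Th1 were 52.2 to 68.3 in RW and 38.0 to 54.9 in aN1aN2, which overlap, and 71.4 to 87.0 in aJ1aJ2, above both.

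**Figure D4:**
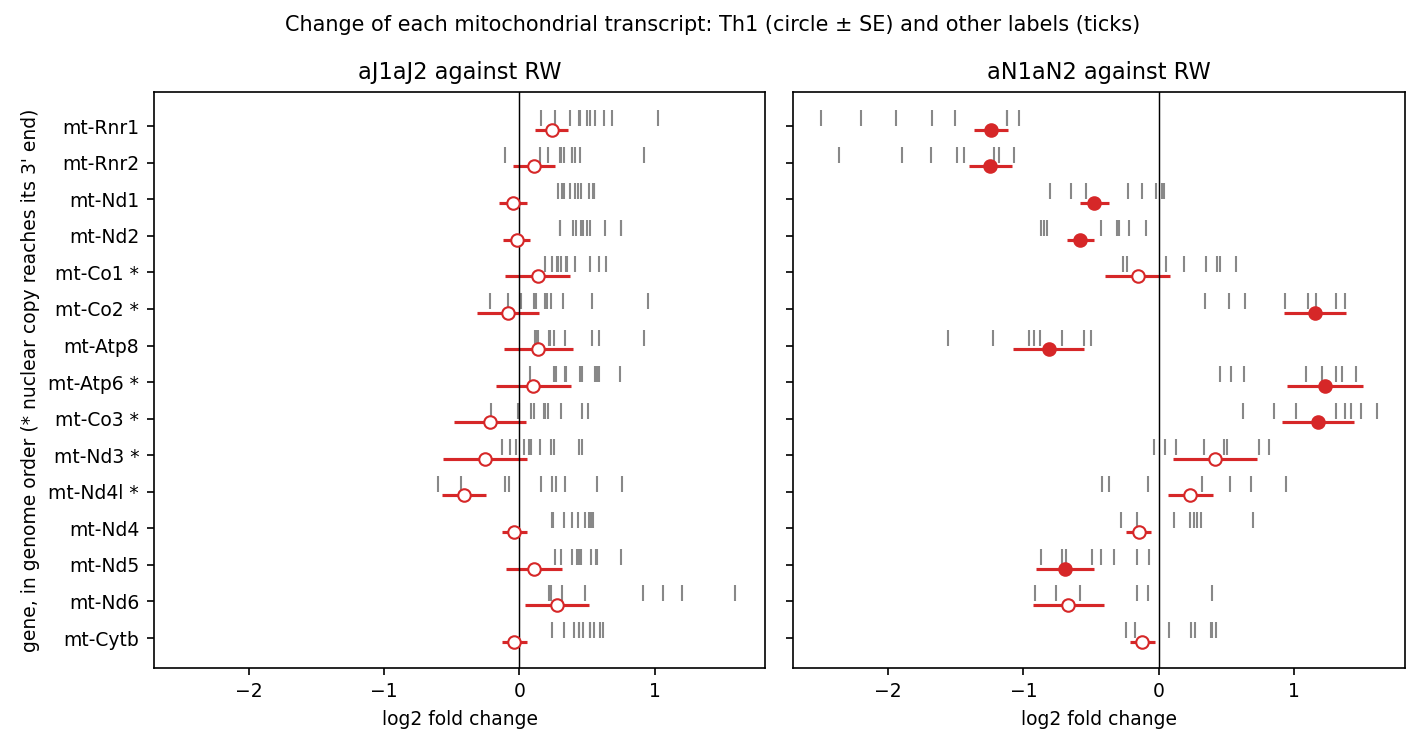
Log2 fold change against RW (x axis) of each tested messenger and ribosomal RNA, in genome order (y axis), for aJ1aJ2 (left) and aN1aN2 (right). Red circles with bars are Th1 ± SE, filled where the edgeR adjusted p is under 0.05, and grey ticks are other labels. Asterisks mark genes with a nuclear copy, matched over at least 100 bases, that reaches the 3' end. On the right mt-Rnr1 and mt-Rnr2 are negative and mt-Atp6, mt-Co2 and mt-Co3 positive in all 9 labels.

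Outside Th1, 37 of 118 combinations of label and gene were called under receptor blockade against RW, 14 higher and 23 lower over 8 labels, where 14.5% of all genes were called, pooled over these labels. Against aJ1aJ2 it was 12 higher and 38 lower of 133 combinations in 9 labels, where 9.77% of all genes were called. These 2 comparisons share the aN1aN2 samples. mt-Cytb, mt-Nd3, mt-Nd4, mt-Nd4l and mt-Nd6 were called in no label against RW. Under ligand blockade 1 of 163 combinations in 11 labels was called, mt-Rnr1 in EC1, and 29 had an unadjusted p under 0.05 (pooled, 0.677% of all genes were called and 9.24% had such a p). In EC1 mt-Rnr1 stood at 3467, 3315 and 2435 CPM in RW 1, 2 and 3 and at 3893, 4716 and 4389 CPM in aJ1aJ2 1, 3 and 4, a log2 fold change of 0.50 (edgeR adjusted p = 0.0440), in a label where 1.43% of all genes were called. Of the 16 alternatives run, 8 kept this call. The count over labels moved with single samples. Without aJ1aJ2 1 it was 10, where 1.38% of all genes were called, and without RW 3 it was 9, where 3.83% were called. It was 2 without RW 1 (0.394% of all genes), and 0 without RW 2, aJ1aJ2 4 or any 1 of the aN1aN2 samples.

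Transfer RNAs were too rarely counted to compare. The 22 genes held 975 UMIs in all, and mt-Tm (methionine) had 298, mt-Ta (alanine) 297 and mt-Tq (glutamine) 132. mt-Ta alone passed the filter on low counts, in Th1 and 1 other label, with a Th1 level of 1.17 to 6.66 CPM among RW samples and 6.58 to 10.9 CPM among aN1aN2 samples. It was not called (log2 fold change 0.92 ± 0.536, SE; edgeR adjusted p = 0.202).

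Most nuclear genes of the same machines fell under receptor blockade, given here by count and median. In Th1, complex I had 1 gene higher and 29 lower of 38 tested (median log2 fold change -0.66), complex II 0 and 3 of 4 (-0.49), complex III 0 and 6 of 9 (-0.74), complex IV 2 and 10 of 15 (-0.61) and complex V 1 and 12 of 17 (-0.46). The 13 mitochondrial messenger RNAs had 3 higher and 4 lower, with a median of -0.15. All tested genes had a median of 0.02, with 17.1% called higher and 17.3% lower. Proteins of the mitochondrial ribosome, the partners of the ribosomal RNAs, had 5 higher and 40 lower of 77 (median -0.41). Under ligand blockade edgeR called 0 genes of the 5 nuclear complexes, while 6, 0, 3, 2 and 5 genes of complexes I to V had an unadjusted p under 0.05 (0.612% and 12.3% of all genes), and the medians lay between -0.08 and -0.20. DESeq2 also called 0 of them, and its share of all genes is not given here. Genes for transcription of the mitochondrial genome had 1 higher and 1 lower of 14 (median 0.05), and those for stability and decay 2 and 3 of 17 (median -0.04), in each direction near or below the share of all genes called.

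Among the regulators of mitochondrial RNA, Tfam, which packages the genome and starts transcription, ranged over 29.02 to 41.5 CPM among RW samples and 20.6 to 29.1 CPM among aN1aN2 samples (log2 fold change -0.48, edgeR adjusted p = 0.0500, not called). Polrmt, the polymerase, had -0.52 (0.212) and Lrpprc, which stabilizes messenger RNAs, -0.22 (0.476). Oxa1l, which inserts new proteins into the inner membrane, rose from 42.2, 38.5 and 42.5 CPM in RW 1, 2 and 3 to 117, 105 and 105 CPM in aN1aN2 1, 2 and 3 (1.40 ± 0.134, SE; edgeR adjusted p = 1.60e-06). Grsf1, an RNA granule protein, rose by 0.82 (edgeR adjusted p = 0.000158). Mrps9 and Mrpl30, proteins of the small and the large ribosomal subunit, rose by 1.27 and 0.59. Mrps28, of the small subunit, fell from 105, 106 and 100.04 CPM to 31.8, 32.1 and 47.1 CPM (-1.53 ± 0.148, SE; edgeR adjusted p = 1.76e-06). Rexo2, which degrades very short RNAs, fell by 1.42 on the log2 scale, Mrps14 by 0.91 and Mrps24 by 0.92. Against aJ1aJ2, Oxa1l, Grsf1, Mrps9 and Mrpl30 were also higher and Mrps28, Mrps14, Rexo2 and Mrpl21 lower.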

How the data were processed

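The deposited table holds raw UMI counts per gene and cell, made by the authors from 10x 3' v2 libraries with Cell Ranger on GRCm38, per the submitters' processing notes. Versions, and how cell labels were made, are not given in the sources used here. The authors' annotation adds each cell's label, its total and its mitochondrial percent, and 2619 annotation lines holding an unquoted comma were repaired on reading. Symbols came from GENCODE M21 on GRCm38 for 52403 gene IDs, and 233 did not match. Doublets were not treated here. Cells held 500 to 131347 UMIs. Counts were summed per sample and label where a sample had at least 20 cells, and a label was tested with at least 2 samples in each group. edgeR 4.0.16 (R 4.3.3) was fitted over all genes with filterByExpr, TMM scaling and 3 group means, and DESeq2 1.42.0 was an alternative. CPM values use TMM library sizes. Single values were compared with exact permutation tests (Python 3.11.15, scipy 1.17.1), over 20 splits for 2 groups and 1680 assignments for 3. Nuclear copies were found with blastn 2.17.0 against GENCODE M21 transcripts, at 99% identity over at least 100 bases. On simulated counts for Th1, aN1aN2 against RW over 10443 genes, 69.7% of genes changed by 1 on the log2 scale were called, 92.6% of those changed by 2, and 10 unchanged genes. The members, gene lists and tests were chosen with earlier results of these data known. Named were all messenger and ribosomal RNAs, transfer RNAs with at least 100 UMIs, Tfam, Polrmt, Lrpprc, and up to 4 other nuclear genes per direction and comparison with the smallest adjusted p.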

Additional observations from a re-analysis of the deposited data

How the results depend on the processing

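No called result changed direction under any alternative run. In Th1, the adjusted permutation p of the ratio over 3 groups was 0.0643 in cells of 4000 to 10000 UMIs and for the median over cells. Those settings gave differences of aN1aN2 of -1.67 and -1.66 from RW and of -1.66 and -1.77 from aJ1aJ2, and the 6 messenger RNAs without a near-identical copy gave -0.92 and -1.04. Over the label mean the 6 gave -1.34 from RW with an adjusted p of 0.0476 over 3 groups, and mt-Rnr2 alone gave 0.0286. The percent of messenger RNA in Th1 gave an adjusted p of 0.0476 with the 6. Its difference of aJ1aJ2 from RW was -0.88 in cells of 4000 to 10000 UMIs and -0.59 in series B only. Its difference of aN1aN2 from RW was -0.84 with the 6, -1.65 in that window and 0.46 for the median over cells, and from aJ1aJ2 0.27 for the median over cells. Over the label mean it was -0.0999 with the 6, from 0.51. Outside Th1, ligand blockade gave 0 calls with the compared groups alone in the fit and 6 with no filter. The share of all genes called in those fits is not given here, so these counts have no background to be read against. The depth window, the 6 messenger RNAs and the added copies were chosen after seeing the data. In each case the cause was not tested.

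Leaving out 1 sample at a time gave adjusted p-values over 3 groups of 0.0143 to 0.0571 for the ratio in Th1, 0.0357 to 0.0643 for its label mean and 0.0143 to 0.686 for the label mean of percent messenger RNA. Calls ranged from 0 to 10 outside Th1 and 0 to 1 in Th1 for aJ1aJ2 against RW, and from 7 to 11 in Th1 for aN1aN2 against aJ1aJ2. Of the 46 calls of aN1aN2 against RW over all labels, 28 were kept in every alternative, and none changed sign. RW and aN1aN2 share the numbers 1 and 2 in their titles. In Th1 the difference of RW 1 from RW 2 did not follow that of aN1aN2 1 from aN1aN2 2 (correlation -0.0399 over 10627 genes). With a single such difference per group, this cannot show whether the numbers mark anything shared. With a replicate block over numbers 1 and 2, log2 of the ratio differed from RW by -1.13 in Th1. Its label mean differed by -1.70. Percent messenger RNA differed by -0.44 in Th1 and by 0.26 over the label mean. In Th1 that block kept every call against RW and added mt-Cytb, mt-Nd3, mt-Nd4 and mt-Nd6. The share of all genes called with it is not given here, so the added calls have no background to be read against.

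UMI numbers limit mt-Nd6, mt-Nd4l and the transfer RNAs most. With 3 pools in a group, the exact permutation test between 2 groups allows no p under 0.1. Receptor blockade is carried by series C alone.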
